A study of Mus musculus with 51 samples.

Results

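Peaks of histone marks were examined at the promoters of 10 genes that signal DNA damage and also act in the silencing of unsynapsed chromatin in male meiosis: H2afx, Mdc1, Brca1, Atr, Atm, Topbp1, Rnf8, Hus1, Hus1b and Rad9b. The genes were picked by name for these functions, and all 10 were found among the 20722 protein-coding genes annotated on chromosomes 1 to 19. A peak was assigned to a gene when it overlapped, by at least 1 bp, the 500 bp on either side of a 5′ end of one of its protein-coding transcripts in GENCODE M21 on the mouse mm10 genome. The measurements were whether a peak was called and how wide the widest such peak was. A width of 0 bp stands for no peak.

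Spermatocytes cut their own DNA at leptonema, and most of the breaks are repaired while homologous chromosomes synapse during zygonema and early pachynema. ATM, a kinase that responds to double-strand breaks, phosphorylates the histone variant H2AX soon after the breaks form. On chromosomes or segments that stay unsynapsed, BRCA1 on the axes precedes loading of ATR, a related kinase, with its activator TOPBP1. The adaptor MDC1 binds phosphorylated H2AX and spreads the signal into the chromatin loops, and the ubiquitin ligase RNF8 acts downstream of MDC1. HUS1 and its paralog HUS1B, and RAD9B, a paralog of RAD9A, belong to the ring-shaped clamp family that RAD9, RAD1 and HUS1 form and that helps to activate ATR. H3K4me3 and H3K9ac are marks of active promoters, and H3K4me3 is also placed by PRDM9 at recombination hotspots in early prophase.

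Nuclei came from fixed testes of adult male wild-type C57Bl/6J mice, and the 5 populations that were sorted by flow cytometry for DNA content, SCP3 and stage markers were leptonema (LE), zygonema (ZY), early pachynema (EP), late pachynema (LP) and diplonema (DI). Leptonema was taken in a sort of its own with STRA8, and the other stages were separated by the intensity of H1t and SCP1, so that neighbouring stages can mix. H3K4me3 (EpiCypher antibody) was profiled by ChIP-Seq at every stage in experiments 1 and 2, H3K4me2/3 (Abcam antibody) in experiment 2 and H3K9ac (Active Motif antibody) in experiment 1. The title of each of the 5 H3K9ac samples names H3K9ac, whereas their antibody field names H3K4me3 with the Active Motif product.

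The 10 H3K4me3 lists held 4883 to 15699 peaks, the 5 H3K4me2/3 lists 17561 to 30943 and the 5 H3K9ac lists 516 to 16003. The lists give positions only, so the sequencing depth behind a call is unknown. Among the sorting markers, Stra8 had an H3K4me3 peak in both leptonema libraries and in no other library, and Sycp3, which encodes SCP3, had one in all 10. Hist1h1t, which encodes H1t, had H3K4me3 peaks in 2 early libraries and in none of the 6 later ones. Of the 4 Sertoli cell markers, Gata4 (3669 bp) and Sox9 (1391 bp) had an H3K4me3 peak in leptonema experiment 2 alone. With the Abcam antibody, Gata4 had an H3K4me2/3 peak in all 5 lists and Sox9 in 1. Of the 4 Leydig cell markers, Insl3 alone had an H3K4me3 peak, in diplonema experiment 2. Of 4 spermatogonial markers, Dmrt1 and Kit had an H3K4me3 peak, in 3 and 1 early libraries, and each had an H3K4me2/3 peak in 4 lists. Of 4 spermatid markers, Spaca1 alone had an H3K4me3 peak, in 6 of 10 libraries. The part of other cells in the widths below was not tested.

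The promoter sequences are shown for the gene with the largest difference between early and later stages, Brca1, and for the clamp paralogs Rad9b, which has a divergent neighbour, and Hus1b, which has none. Each runs 5′ to 3′ in the direction of the gene and ends just before the annotated start of the gene. The Brca1 and Rad9b stretches are the whole space between the gene and a neighbour that is transcribed the other way, Nbr1 and Vps29. Capitals mark matches on either strand to 7 short motifs that were searched: CCAAT (NF-Y), GGGCGG (GC box), TGACGTCA (cAMP response element), CACGTG (E-box), TGCGCA (core of the NRF1 motif), CNCCTCAG (STRA8) and TAACNG (MYB), none of which overlapped another within the printed stretches. The sequences are from RefSeq on GRCm38.p6, the assembly of mm10.
Brca1, chr11:101551956-101552148, minus strand: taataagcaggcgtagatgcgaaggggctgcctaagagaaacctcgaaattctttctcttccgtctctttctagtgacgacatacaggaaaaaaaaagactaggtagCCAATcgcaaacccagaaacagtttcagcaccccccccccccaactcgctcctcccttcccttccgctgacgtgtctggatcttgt
Rad9b, chr5:122354234-122354368, minus strand: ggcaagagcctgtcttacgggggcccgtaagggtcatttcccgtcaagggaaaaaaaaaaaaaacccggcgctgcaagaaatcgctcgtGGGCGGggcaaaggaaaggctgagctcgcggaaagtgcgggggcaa
Hus1b, chr13:30947762-30948011, minus strand: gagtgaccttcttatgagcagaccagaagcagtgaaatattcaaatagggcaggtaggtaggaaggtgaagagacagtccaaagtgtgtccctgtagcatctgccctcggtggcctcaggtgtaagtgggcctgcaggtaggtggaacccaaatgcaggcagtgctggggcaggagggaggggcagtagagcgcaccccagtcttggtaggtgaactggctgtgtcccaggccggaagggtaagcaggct

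The Brca1 stretch held 1 CCAAT match and the Rad9b stretch 1 GC box, and no motif matched in the 250 bp before Hus1b. In RefSeq windows from 250 bp before to 50 bp after the start, 9 of the 10 genes had an entry. CCAAT was found in 5 of these 9 windows (Mdc1, Brca1, Atm, Rnf8 and Rad9b) and in 37.3% of all 31396 windows on chromosomes 1 to 19. The GC box was found in 7 of 9 and in 36% of all windows, and the NRF1 core in 2 of 9 (Atm and Rnf8) and in 7.76%. The MYB site matched in 1 of 9, Mdc1, against 23.4% of all windows. The STRA8 motif, the cAMP response element and the E-box matched in 0 of 9 and in 7.92%, 1.83% and 7.14% of all windows. A match is a description of the letters and not of binding.

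Hus1b differed from the other 8 genes in CpG content. Its window held 5 CpG dinucleotides with an observed over expected CpG ratio of 0.21, which lies above 30% of all promoters. The other 8 windows held 19 (Brca1) to 38 (Topbp1) CpG dinucleotides, with ratios from 0.83 (Mdc1) to 1.00 (Rad9b), against a median of 0.39 over all promoters. Hus1b is a gene of 1 annotated exon, and its 5′ end lies within an intron of Exoc2, on the same strand.

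The 10 genes differed in how long an H3K4me3 peak was called through prophase. All 10 had a peak in every one of the 4 leptonema and zygonema libraries, as did 57.8% of the 11215 genes with a peak in at least 1 library. In all 6 later libraries 7 of 10 had a peak, against 35.8% of genes, and the same 7 had one in all 10 libraries, against 33.3%. The 7 became 4 when every list was shortened to the same length, 4 when the wider peaks of each list were kept, and 2 when the peak had to cover a 5′ end. The exceptions were Brca1 and Hus1b, each called in 5 libraries, and Hus1, called in 9. The mean number of the 10 genes called was 10.00 ± 0.00 (SD, n = 4 libraries) at the early stages and 8.17 ± 0.75 (SD, n = 6) at the later stages, a difference of 1.83 genes. The share of all 20722 protein-coding genes with a peak was also lower later, at 35.3% to 46.3% in the early libraries and 25.2% to 46% in the later ones. When each list was shortened to its 4883 widest peaks, the difference turned to -1.0, with 6.50 ± 1.29 genes called early and 7.50 ± 0.55 later. The shares of all genes under these altered rules are not given here, so those counts describe the members alone.

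**Figure D1:**
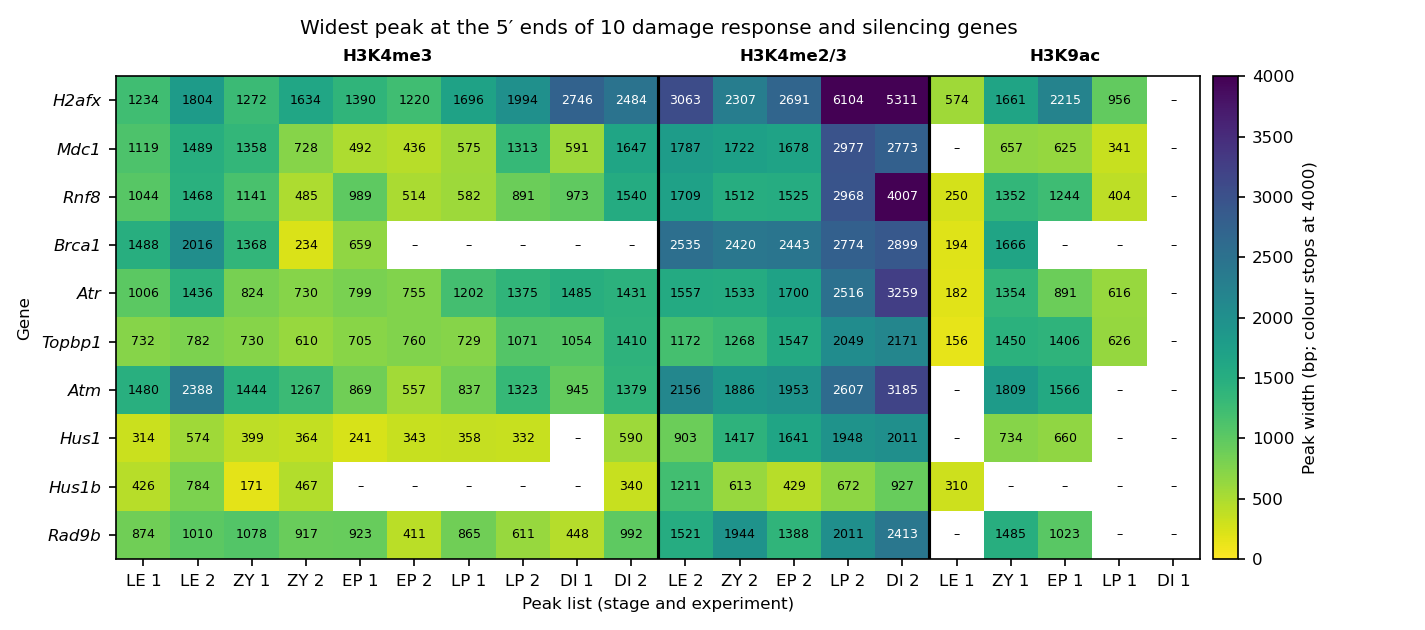
Width in bp of the widest peak at the 5′ ends of each gene (rows) in each of the 20 lists (columns: stage LE, ZY, EP, LP or DI, then experiment), with a dash where no peak was called and darker colour for wider peaks. The H3K4me2/3 block has no empty cell, the H3K9ac column of diplonema is empty, and the H3K4me3 cells of Brca1 are empty in 5 of the 6 later libraries.

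The median over the 10 genes of the mean H3K4me3 width was 910.5 bp, against 427.3 bp over all genes tested, where a library without a peak counts as 0 bp. Over the genes with a peak in a library, the members' median was the higher in each of the 10 libraries, from 669 against 579 bp in zygonema experiment 2 to 1452 against 828 bp in leptonema experiment 2. This is a description with no test. The 10 genes have 25 distinct protein-coding 5′ ends, and 18 of them, all within 300 bp of the most upstream 5′ end of their gene, had a peak in some list. The other 7 lay further downstream, such as those 27.5 kb into Topbp1 and 83.1 kb into Atm, and had no peak in any of the 20 lists.

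H2afx, which encodes the histone variant H2AX, carried the widest H3K4me3 peaks of the group in diplonema. Its single 5′ end is on chromosome 9 at 44334694, plus strand. The H3K4me3 widths in experiments 1 and 2 were 1234 and 1804 bp at leptonema, 1272 and 1634 bp at zygonema, and 1390 and 1220 bp at early pachynema. They were 1696 and 1994 bp at late pachynema and 2746 and 2484 bp at diplonema. Both diplonema peaks were wider than the peaks of the other 8 libraries, which held for no other member and for 15.9% of all genes tested. This comparison was chosen after the widths were seen. The median width of all H3K4me3 peaks was 426 and 578 bp in the late pachynema lists and 689 and 773 bp in the diplonema lists. Divided by the list median, the H2afx widths were 3.98 and 3.45 at late pachynema and 3.99 and 3.21 at diplonema. They were 2.83 and 3.21 at early pachynema and 1.89 to 2.95 in the early libraries. The mean width was 1486.0 ± 278.3 bp (SD, n = 4) early and 1921.7 ± 604.5 bp (SD, n = 6) later, and the groups overlapped (exact permutation p = 0.233, adjusted p = 0.573). The early minus later difference of -435.7 bp was -270.8 bp without diplonema experiment 1. Among the 5 stages the exact permutation p was 0.0413 before and 0.399 after adjustment.

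The extra width of H2afx lay on one side. The part of the peak downstream of the 5′ end was 1371.8 ± 148.6 bp early and 1396.7 ± 141.1 bp later. The upstream part was 0 and 381 bp at leptonema, 0 and 76 bp at zygonema and 0 bp in both early pachynema libraries. It was 393 and 642 bp at late pachynema and 1135 and 980 bp at diplonema, where the peaks reached past the 3′ end of Dpagt1, which ends 794 bp upstream of H2afx on the same strand. The annotation also holds an antisense RNA, Gm48853, whose own 5′ end is 308 bp upstream, and a miRNA, Gm44335, whose 5′ end is 411 bp downstream on the opposite strand. For the upstream bases the exact permutation p among stages was 0.019 (adjusted p = 0.429). Atr showed the smallest p of the members for the same measure, 0.0127 by the exact permutation test (adjusted p = 0.411).

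Mdc1, the adaptor that reads phosphorylated H2AX, starts on chromosome 17 at 35841515. It had H3K4me3 widths of 1119 and 1489 bp at leptonema, 1358 and 728 bp at zygonema and 492 and 436 bp at early pachynema. The later values were 575 and 1313 bp at late pachynema and 591 and 1647 bp at diplonema. Early pachynema was narrow in both experiments, while at late pachynema and diplonema the peak of experiment 2 was far wider than that of experiment 1. In the 4 later libraries with narrow peaks (both of early pachynema and experiment 1 of late pachynema and diplonema), the peak began 205 to 246 bp downstream of the 5′ end. In the other 6 libraries it began 358 to 692 bp upstream. The early mean exceeded the later mean by 331.2 bp (exact permutation p = 0.3, adjusted p = 0.652). The difference was 685.8 bp within experiment 1 and -23.5 bp within experiment 2, so that it did not hold within experiment 2.

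Rnf8, the ubiquitin ligase, starts on chromosome 17 at 29614790, and its width differed between the experiments at each stage. The widths in experiments 1 and 2 were 1044 and 1468 bp at leptonema, 1141 and 485 bp at zygonema and 989 and 514 bp at early pachynema. They were 582 and 891 bp at late pachynema and 973 and 1540 bp at diplonema. The early minus later difference of 119.7 bp was within this spread (exact permutation p = 0.624, adjusted p = 0.833), and it was 244.5 bp in experiment 1 and -5.2 bp in experiment 2. The lncRNA AC163629.1 starts 20 bp away on the opposite strand and the readthrough gene Gm28043 starts 12 bp from one of the 5′ ends on the same strand, so a peak here cannot be given to one of the 3 genes.

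Atr and Topbp1, the kinase and its activator, were marked without a break, and in bp each had its widest peak at diplonema. Atr starts on chromosome 9 at 95857597, with the antisense RNA 1700065D16Rik 80 bp away. Its widths were 1006 and 1436 bp at leptonema, 824 and 730 bp at zygonema, 799 and 755 bp at early pachynema, 1202 and 1375 bp at late pachynema and 1485 and 1431 bp at diplonema. The 2 experiments lay close together at each stage after leptonema, and zygonema and early pachynema were both narrower than late pachynema and diplonema. Divided by the median width of its list, Atr was highest at late pachynema, with 2.82 and 2.38. Early pachynema then had 1.63 and 1.99, and diplonema 2.16 and 1.85. Among the stages the exact permutation p was 0.037 (adjusted p = 0.399), and with H2afx this was 1 of 2 members under 0.05 before adjustment, against 11.5% of all genes tested. With the experiment as a replicate block, where the smallest p is 0.00833, 0 members were under 0.05, and likewise without either early pachynema library, late pachynema experiment 2 or diplonema experiment 1. The pooled early minus later difference was -175.5 bp (exact permutation p = 0.419, adjusted p = 0.686), and leptonema was also wide. This difference was -381.5 bp with lists of equal length, where Atr kept a call in 3 early and 6 later libraries. Leaving out 1 library moved the pooled difference between -321.2 bp (without leptonema experiment 2) and -85.8 bp (without zygonema experiment 2).

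Topbp1 starts on chromosome 9 at 103305215, 133 bp from the divergent gene 1300017J02Rik, and every one of its peaks was shared with that gene. The widths were 732 and 782 bp at leptonema, 730 and 610 bp at zygonema, 705 and 760 bp at early pachynema, 729 and 1071 bp at late pachynema and 1054 and 1410 bp at diplonema. The first 7 of these values span 610 to 782 bp, and the later mean exceeded the early mean by 241.3 bp, an early minus later difference of -241.3 bp (exact permutation p = 0.114, adjusted p = 0.423). It was -771.8 bp with lists of equal length (exact permutation p = 0.0143, adjusted p = 0.223). Under that rule Topbp1 kept a call in 1 early and 6 later libraries, and a trimmed peak counted as 0 bp. Without diplonema experiment 2 the difference was -150.3 bp. Divided by the list median, the Topbp1 widths were 1.08 to 1.25 in the early libraries and 1.44 and 2.00 at early pachynema. Late pachynema had 1.71 and 1.85 and diplonema 1.53 and 1.82, so on this scale diplonema was not the widest. The bases upstream of the 5′ end, on the side of 1300017J02Rik, numbered 316.5 ± 59.0 bp early and 533.0 ± 132.2 bp later (exact permutation p = 0.0238, adjusted p = 0.229). Topbp1 was the 1 member with more upstream bases later at an unadjusted p under 0.05, against 2.22% of the 9371 genes with upstream bases.

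Brca1 showed the largest difference between early and later stages. Its most upstream protein-coding 5′ end is on chromosome 11 at 101551879, minus strand, inside a gene model that begins at 101551955. The divergent gene Nbr1, which encodes an autophagy receptor, has its 5′ end 270 bp from the former. The H3K4me3 widths were 1488 and 2016 bp at leptonema and 1368 and 234 bp at zygonema. At early pachynema, experiment 1 gave 659 bp and experiment 2 gave no peak, and none of the 4 late pachynema and diplonema libraries had a peak. The mean was 1276.5 ± 749.8 bp (SD, n = 4) early and 109.8 ± 269.0 bp (SD, n = 6) later. The difference of 1166.7 bp was 1208.3 bp in experiment 1 and 1125.0 bp in experiment 2, with an exact permutation p of 0.00952 and an adjusted p of 0.148. The groups overlapped: the peak of zygonema experiment 2 was narrower than that of early pachynema experiment 1. The study lists zygonema experiment 2 with the lowest sort purity of its H3K4me3 libraries, and the part of purity in this width was not tested. Without leptonema experiment 2 the difference was 920.2 bp (exact permutation p = 0.0238, adjusted p = 0.311).

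Of the 4 early Brca1 peaks, 3 lay mostly over Nbr1. In leptonema and in zygonema experiment 1 they covered 1163 to 1667 bp upstream of the Brca1 5′ end and 205 to 349 bp downstream, and they were at least as wide as 92.6% to 95.9% of the peaks in their lists. The peak of zygonema experiment 2 ran from 149 bp upstream to 84 bp downstream, short of the Nbr1 5′ end, and was at least as wide as 13.2% of its list. Nbr1 had an H3K4me3 peak in 6 libraries, of which 5 were shared with Brca1. In early pachynema experiment 2 the peak nearest to Brca1 was 154 bp wide and lay 1009 to 1162 bp upstream, on the Nbr1 side. The 3 genes whose widths followed those of Brca1 most closely over the 10 libraries without sharing a peak were Zfp810 (Pearson r = 0.991), a zinc finger gene, Esco2 (r = 0.988), a cohesin acetyltransferase, and Tsr1 (r = 0.983), a ribosome maturation factor. These are descriptions over 10 libraries whose lists differ in length, from 4883 to 15699 peaks.

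**Figure D2:**
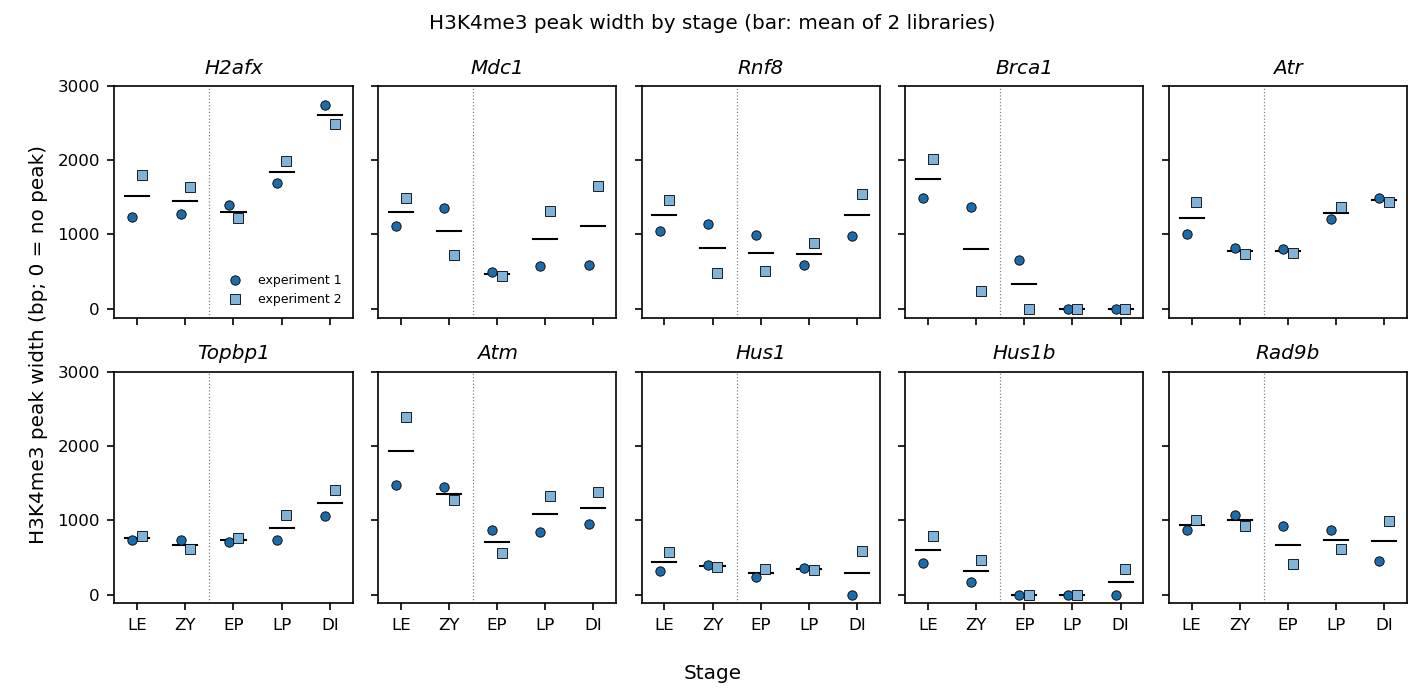
H3K4me3 peak width in bp (y axis, 0 = no peak) at each stage (x axis) for the 10 genes, with circles for experiment 1, squares for experiment 2, a bar at the mean of the 2 libraries and a dotted line between early and later stages. Brca1 and Hus1b sit at 0 in 5 of the 6 later libraries, H2afx is highest at diplonema with 2746 and 2484 bp, and Topbp1 stays between 610 and 782 bp in the first 7 libraries.

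In the clamp family, the canonical gene Hus1 was called in 9 H3K4me3 libraries and its paralog Hus1b in 5. The 2 genes were not tested against each other. Hus1, on chromosome 11 at 9011191 with no other 5′ end within 1000 bp, had narrow peaks in 9 libraries. They were 314 and 574 bp at leptonema, 399 and 364 bp at zygonema, 241 and 343 bp at early pachynema and 358 and 332 bp at late pachynema. At diplonema, experiment 1 had none and experiment 2 had 590 bp. Their rank by width lay between 14.7% and 43.4% of the peaks in their lists, counted from the narrowest, and the early minus later difference was 102.1 bp (exact permutation p = 0.357, adjusted p = 0.667). The difference was 39.9 bp without diplonema experiment 1, 48.3 bp without leptonema experiment 2 and 157.9 bp without diplonema experiment 2, and -116.8 bp with lists of equal length. With those lists Hus1 was called in 0 early and 2 later libraries, and with the wider peaks of each list in 0 libraries.

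Hus1b, on chromosome 13 at 30947759, had widths of 426 and 784 bp at leptonema and 171 and 467 bp at zygonema. Neither pachytene stage had a peak, and at diplonema experiment 1 had none while experiment 2 had 340 bp. The mean was 462.0 ± 251.5 bp early and 56.7 ± 138.8 bp later, a difference of 405.3 bp (exact permutation p = 0.00952, adjusted p = 0.148). The difference was 298.5 bp in experiment 1 and 512.2 bp in experiment 2. On the same scale its peaks ranked from 3.8% in zygonema experiment 1 to 58% in leptonema experiment 2. With lists of equal length, Hus1b had no H3K4me3 call in any library, and with the wider peaks of each list it had 1.

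At Atm and Rad9b, the peak was present in every library but stopped short of the gene in some later ones. Atm starts on chromosome 9 at 53536740, minus strand, 307 bp from the divergent gene Npat, a regulator of histone gene transcription. Its widths were 1480 and 2388 bp at leptonema, 1444 and 1267 bp at zygonema, 869 and 557 bp at early pachynema, 837 and 1323 bp at late pachynema and 945 and 1379 bp at diplonema. The mean was 1644.8 ± 504.2 bp early and 985.0 ± 312.9 bp later, a difference of 659.8 bp (exact permutation p = 0.019, adjusted p = 0.198). Without leptonema experiment 2, the library with H3K4me3 peaks at Gata4 and Sox9, the difference was 412.0 bp (exact permutation p = 0.0714, adjusted p = 0.468). All 10 peaks were shared with Npat.

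The bases downstream of the Atm 5′ end separated the groups. They numbered 384 and 924 at leptonema and 379 and 288 at zygonema. They were 250 and 0 at early pachynema, 0 and 144 at late pachynema and 0 and 101 at diplonema. In the 3 later libraries at 0, the peak ended 210 to 389 bp upstream of Atm, on the Npat side. All 4 early values exceeded all 6 later ones, which was true of 1 member and of 5.39% of the 11018 genes with downstream bases (means 493.8 ± 290.2 and 82.5 ± 102.6 bp, exact permutation p = 0.00476, the smallest this design allows, adjusted p = 0.111). The upstream bases were 1151.0 ± 214.5 early and 902.5 ± 291.0 later (exact permutation p = 0.181, adjusted p = 0.522). The split at the 5′ end was chosen after the peaks were seen.

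Rad9b starts on chromosome 5 at 122354233, minus strand, 136 bp from the divergent gene Vps29, which encodes a subunit of the retromer, and all 10 peaks were shared. The widths were 874 and 1010 bp at leptonema, 1078 and 917 bp at zygonema, 923 and 411 bp at early pachynema, 865 and 611 bp at late pachynema and 448 and 992 bp at diplonema. The early minus later difference was 261.4 bp (exact permutation p = 0.0762, adjusted p = 0.353). Downstream of the 5′ end the early peaks covered 268, 326, 312 and 302 bp. The later peaks covered 278 and 0 bp at early pachynema, 246 and 0 bp at late pachynema and 0 and 90 bp at diplonema. The difference downstream was 199.7 bp (exact permutation p = 0.019, adjusted p = 0.199), whereas upstream, on the Vps29 side, it was 61.8 bp (exact permutation p = 0.552, adjusted p = 0.778). In the 3 libraries at 0 the peak ended 61 to 240 bp short of Rad9b.

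**Figure D3:**
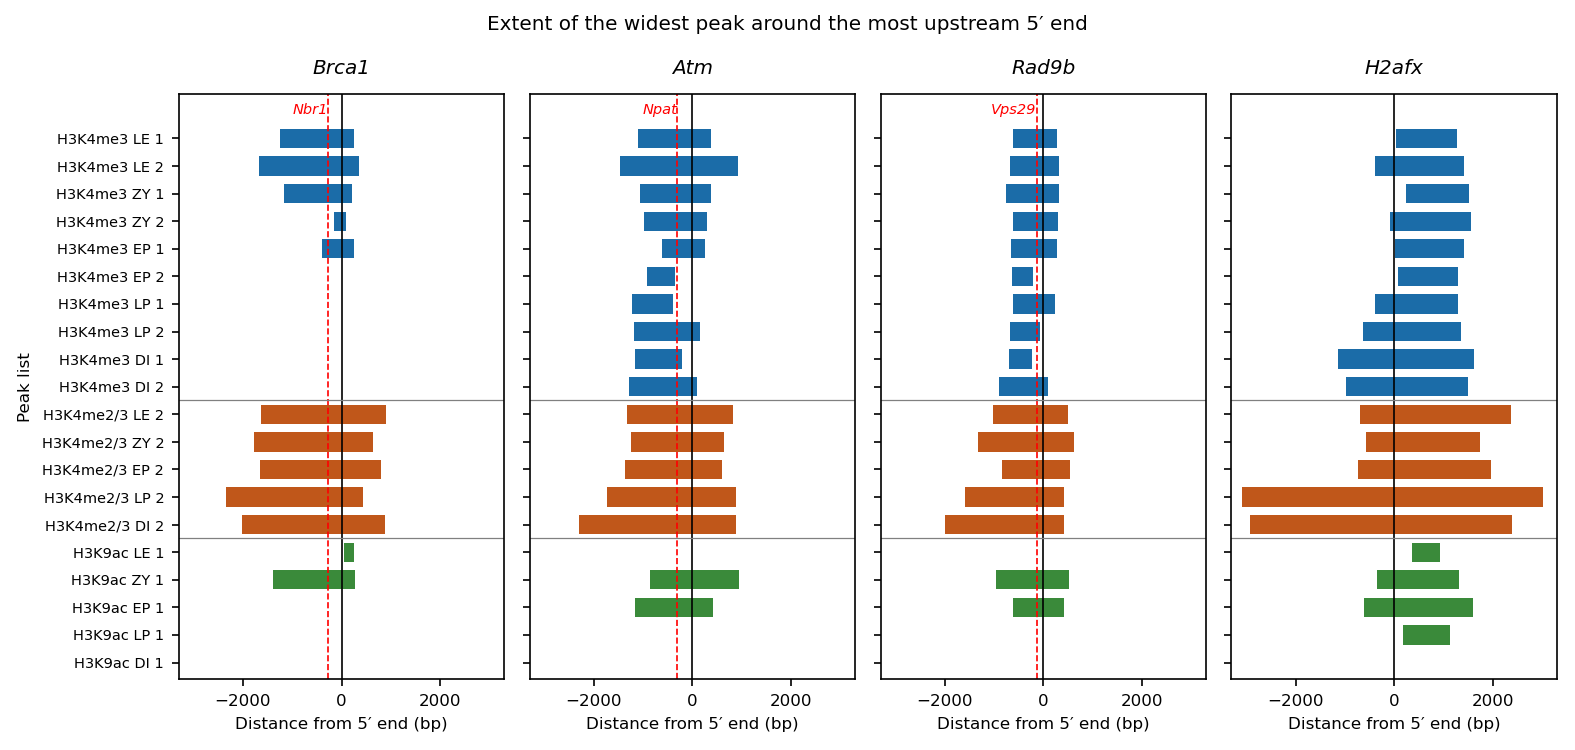
Position of the widest peak (bars) relative to the most upstream 5′ end of Brca1, Atm, Rad9b and H2afx (x axis, distance in bp, positive in the direction of the gene; solid line at 0) in the 20 lists (y axis), coloured by antibody, with a dashed line at the 5′ end of the divergent protein-coding neighbour. The H3K4me3 peaks of Atm end left of the solid line in 3 later libraries, and those of H2afx reach 980 and 1135 bp to its left at diplonema.

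Over the 10 genes, 4 had more downstream bases early at an unadjusted p under 0.05 (Brca1, Atm, Hus1b and Rad9b), against 14.4% of all genes with downstream bases. Upstream, 1 gene (Brca1) had more bases early, against 14.4% of genes. After adjustment neither side called a gene (0% of genes for each). When a peak had to cover a 5′ end itself, 2 of the 10 genes, Atr and Topbp1, were called in all 10 libraries, and the mean number called was 8.75 ± 1.50 (SD, n = 4) early and 5.17 ± 2.64 (SD, n = 6) later. The share of all genes under this rule is not given here, so whether the early excess is particular to these genes was not tested.

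No gene passed the adjusted threshold of 0.05 in either comparison of widths. In the exact permutation test of early against later stages, 0 of 11215 genes were called (0%) and 0 members. At an unadjusted p under 0.05, 1643 genes (14.7%) were wider early, among them 3 members, Brca1, Atm and Hus1b. Another 267 genes (2.38%) were wider later, with 0 members. When each width was divided by the median width of its list, H2afx (exact permutation p = 0.019) and Topbp1 (exact permutation p = 0.00952) were wider later under this unadjusted limit, and as percentiles in the list both had an exact permutation p of 0.00476. Either scaling put 5 members under 0.05 before adjustment and 0 after it. Over all 11215 genes, 2364 (list median) and 2276 (percentile) were under 0.05 before adjustment, against 1910 for widths in bp. In the test among the 5 stages, 0 genes were called (0%) and 1287 had an unadjusted p under 0.05. The widths of the 2 groups were fully apart in 0 members, against 5.47% of genes with all early widths above all later ones and 1.1% with the reverse. The smallest p that 4 against 6 libraries allow is 0.00476, and it would pass the adjustment only if 1069 genes reached it, whereas 464 did. The median early minus later difference was 190.5 bp over the 10 genes and 89.7 bp over all genes tested. The labels give experiments and not animals, so a p-value measures the spread between these libraries.

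H3K4me2/3, read with the Abcam antibody, was called at all 10 genes at all 5 stages, against 71.2% of the 13913 genes with a peak at any stage. There was 1 library per stage and therefore no test. Brca1, without an H3K4me3 call from late pachynema on, had H3K4me2/3 widths of 2535, 2420, 2443, 2774 and 2899 bp from leptonema to diplonema. Hus1b had 1211, 613, 429, 672 and 927 bp in the same order. In early and late pachynema of experiment 2, both genes had an H3K4me2/3 peak and no H3K4me3 peak. Many other genes did too: at early pachynema 11132 protein-coding genes had an H3K4me2/3 peak, and 5222 had both peaks. At late pachynema 11486 had an H3K4me2/3 peak and 8189 had both.

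The H3K4me2/3 peaks were widest late. From early to late pachynema the peak was wider at 10 of 10 genes, with a ratio from 1.14 (Brca1) to 2.27 (H2afx) and a median of 1.46. Of the 10522 genes with a peak at both stages, 81.8% were wider at late pachynema, with a median ratio of 1.38. H2afx had 3063, 2307 and 2691 bp up to early pachynema, then 6104 bp at late pachynema and 5311 bp at diplonema. These last peaks began 3088 and 2922 bp upstream and ended 3015 and 2388 bp downstream of the H2afx 5′ end. Rnf8 reached 4007 bp, Atr 3259 bp and Atm 3185 bp at diplonema. The widest of the 5 peaks fell at diplonema for 7 genes, at late pachynema for H2afx and Mdc1 and at leptonema for Hus1b. Over all genes with a peak, it fell at diplonema in 32.5%, at late pachynema in 20.8% and at leptonema in 35.3%. The median width of all H3K4me2/3 peaks was also higher late, at 1121 and 1294 bp in late pachynema and diplonema against 836 to 870 bp before.

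Against H3K4me3 of the same experiment, the H3K4me2/3 peak was the wider at each gene that had both peaks, except at Atm in leptonema with 2156 against 2388 bp. Both peaks were present at 10 genes in leptonema and in zygonema, at 8 in either pachynema stage and at 9 in diplonema. The median ratio over these genes was 1.38 in leptonema and 2.11 in zygonema, then 3.17 and 2.66 in early and late pachynema and 2.31 in diplonema. At early pachynema the study's methods list the libraries of the 2 antibodies with different chromatin amounts and sort purities, so there antibody and preparation cannot be told apart. Over all genes with both peaks, the median ratios in the order of stages were 1.83, 2.58, 3.55, 2.97 and 2.11. The highest single ratio was 10.34 at Brca1 in zygonema, where the H3K4me3 peak was 234 bp.

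**Figure D4:**
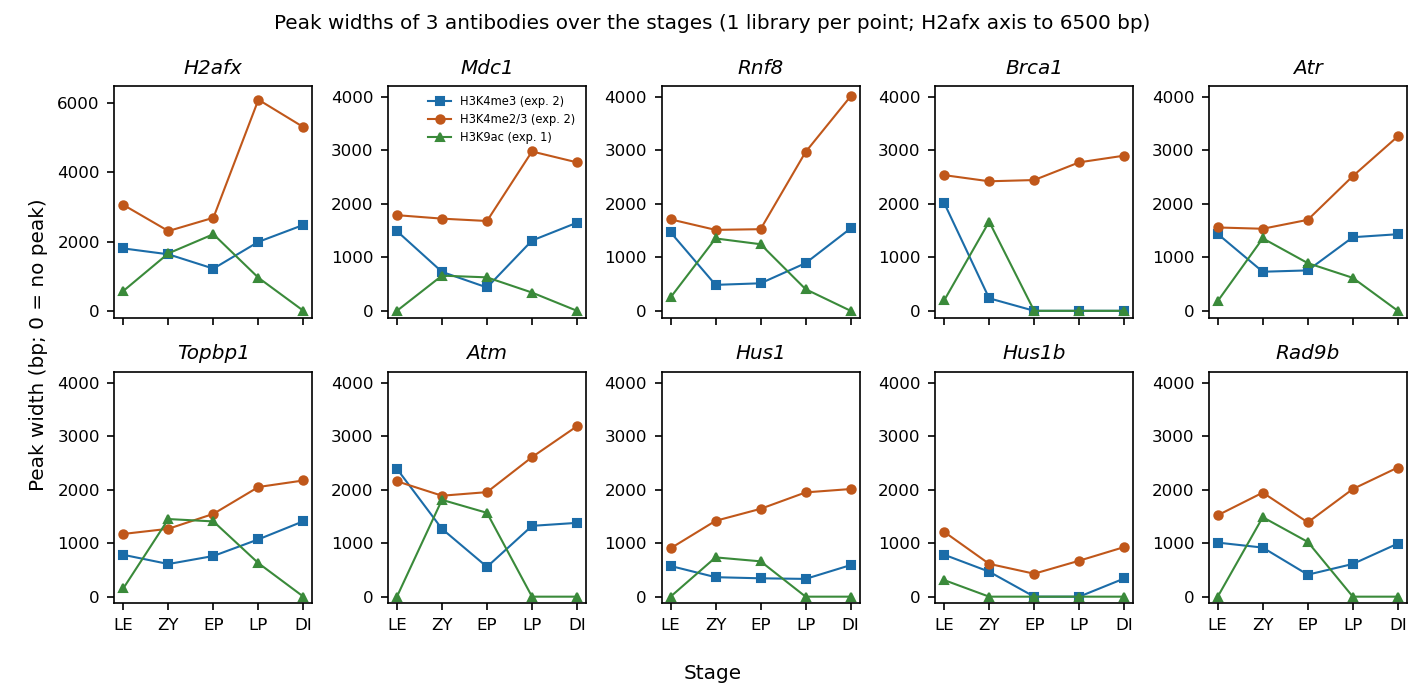
Peak width in bp (y axis, 0 = no peak; the H2afx axis runs higher) over the stages (x axis) for H3K4me3 and H3K4me2/3 of experiment 2 and H3K9ac of experiment 1, 1 library per point. H3K4me2/3 is widest at late pachynema or diplonema in 9 of 10 genes, whereas H3K9ac is 0 at diplonema in all 10. Over all genes with an H3K4me2/3 peak, the widest fell at late pachynema in 20.8% and at diplonema in 32.5%. At diplonema 1.99% of all protein-coding genes had an H3K9ac peak.

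H3K9ac was found mainly at zygonema and early pachynema. The leptonema list called 6 of 10 genes, the zygonema list 9 and the early pachynema list 8. The late pachynema list called 5 and the diplonema list 0. The shares of all protein-coding genes with an H3K9ac peak were 14.8%, 41.1%, 35.3%, 8.27% and 1.99% in the same order, so that the course of the members ran with the length of the lists. None of the 10 genes had a peak at all 5 stages, against 1.83% of the 8998 genes with a peak at any stage. Without the diplonema list, 4 genes had one at every remaining stage: H2afx, Atr, Topbp1 and Rnf8. The share of all genes under this rule is not given here, so that count describes the members alone.

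The H3K9ac widths at zygonema ranged from 657 bp (Mdc1) to 1809 bp (Atm). H2afx had 574, 1661, 2215 and 956 bp from leptonema to late pachynema. Brca1 had 194 bp at leptonema and 1666 bp at zygonema and no peak after that, while its H3K4me3 peak of 659 bp was still called at early pachynema in the same experiment. Hus1b was the only member without an H3K9ac peak at zygonema, and its single peak was 310 bp at leptonema. Atm, Hus1 and Rad9b had H3K9ac at zygonema and early pachynema alone. With windows of 1000 bp, H2afx and Rnf8 gained a diplonema call, from peaks of 271 bp at 842 to 1112 bp and 290 bp at 590 to 879 bp downstream of their most upstream 5′ ends.

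Peaks also lay inside Atm and Rnf8, far from their 5′ ends, in the early lists. The Atm region, 37.5 to 38.9 kb into the gene (chr9:53497889-53499266, overlapping an exon), is 34700 bp from the nearest annotated 5′ end. It had an H3K4me3 peak in leptonema experiment 1 (525 bp) and in zygonema experiments 1 (1127 bp) and 2 (903 bp). It also had an H3K4me2/3 peak at leptonema (617 bp) and zygonema (1172 bp) and an H3K9ac peak at zygonema (1208 bp). None of the lists of early pachynema or later had a peak there. The Rnf8 region, 25.9 to 27.1 kb into the gene (chr17:29640739-29641888, overlapping an exon), was called at zygonema alone, with 527 bp for H3K4me3 in experiment 1, 857 bp for H3K4me2/3 and 813 bp for H3K9ac. A further region 28.0 kb into Atm (chr9:53508109-53508743, intronic) had H3K4me2/3 peaks at late pachynema (635 bp) and diplonema (569 bp) alone. These regions were found by looking through the gene bodies after the lists were read.

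Of 41 further genes in 5 lists, 40 had an H3K4me3 peak, and 0 were called in either comparison. At an unadjusted p under 0.05, 12 of the 40 were wider early (14.7% of all genes tested) and 0 wider later (2.38%) by the exact permutation test. The early mean was the larger in 32, and 15 had a peak in all 10 libraries, against 33.3% of all genes. Among the partners and effectors of ATR, 5 of 9 were under 0.05 and wider early. The lists were not tested against each other or against all genes, and their counts are descriptions beside the 14.7%. Rpa3, a subunit of the single-strand DNA binding protein RPA, was 671.2 bp wider early (exact permutation p = 0.00952, adjusted p = 0.148). Tipin, of the fork protection complex, was 559.3 bp wider early (exact permutation p = 0.00476, adjusted p = 0.115).

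Of the BRCA1 partners, 4 of 8 were under 0.05 and wider early, with differences of 959.4 bp for the helicase gene Brip1 (exact permutation p = 0.0238, adjusted p = 0.225) and 537.4 bp for Rbbp8, which encodes the resection factor CtIP (exact permutation p = 0.0286, adjusted p = 0.231). In the ATM and ubiquitin list it was 2 of 8, the kinase gene Chek2 with 502.5 bp (exact permutation p = 0.0333, adjusted p = 0.231) and Nbn of the MRE11 complex with 371.4 bp (exact permutation p = 0.0429, adjusted p = 0.262). In the list of unsynapsed chromatin it was 1 of 7, the ubiquitin ligase gene Ubr2 with 441.5 bp (exact permutation p = 0.00476, adjusted p = 0.115). Setdb1, an H3K9 methyltransferase with a role in silencing, differed by 510.3 bp with an exact permutation p of 0.152 (adjusted p = 0.461).

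Of the clamp and its loader, 0 of 8 were under 0.05 in either direction. Rad9a, the canonical gene of which Rad9b is the paralog, had no H3K4me3 peak in any of the 7 libraries up to late pachynema experiment 1, and then 468 bp in late pachynema experiment 2 and 578 and 1248 bp at diplonema. Its early minus later difference was -382.3 bp (exact permutation p = 0.2, adjusted p = 0.524), against 261.4 bp for Rad9b. The loader subunit gene Rfc5 differed by 243.8 bp (exact permutation p = 0.138, adjusted p = 0.434).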

How the data were processed

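ChIP-Seq peak lists of 20 of the 51 samples were used, and the other 31 were not analysed here. Per the study's methods and the submitters' processing notes, the authors aligned reads to mm10 with BWA 0.7.12 and called broad peaks per library with MACS2 2.1.2, with stage-matched input for H3K4me3. For H3K9ac the control is not given in the sources used here. The deposited files hold peak coordinates on chromosomes 1 to 19, without a score, height, signal or read count. Deeper or purer libraries can give more and wider peaks, and a missing peak does not show that the mark is absent.

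Overlaps and widths were computed in Python 3.11.15 with numpy 2.4.6. The 5′ ends were those of protein-coding transcripts in GENCODE M21. For each gene, the mean width of the widest peak in the 4 leptonema and zygonema libraries was compared with that in the 6 later ones by a two-sided exact permutation test over 210 splits. The between-stage sum of squares was tested over 945 pairings of libraries. Both were adjusted by Benjamini-Hochberg over 11215 genes with a peak in at least 1 library. The overlap step and both tests were tested on simulated data. The 10 genes, the pathway and marker lists and the tests were chosen with earlier results of these data known. The other genes named are those with the largest early minus later difference, up to 2 per list, genes starting within 1000 bp of a member, and the 3 genes closest in pattern to Brca1. The alternatives were other windows, overlaps, list sizes, transcripts, merging, width scales, gene filters, a replicate block and leaving out each library. The measures that cut a peak at the 5′ end were added after seeing the data.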

Additional observations from a re-analysis of the deposited data

Results flagged for a closer look

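In the later stages, the H3K4me3 peak of 659 bp at Brca1 in early pachynema experiment 1 stood apart from the other 5 libraries, which had no peak. In the same way, the peak of 340 bp at Hus1b in diplonema experiment 2 stood apart from 5 libraries at 0 bp. These were the 2 of 20 groups of widths in which 1 library lay further from the rest than Dixon's 95% limit. Chance flags about 1 in 20 groups, but that rate does not apply here: with the other 5 libraries at 0 bp, a single call of any width passes the limit. Each came from the longer list of its stage: early pachynema experiment 1 held 6647 peaks against 4883 in experiment 2, and diplonema experiment 2 held 12071 against 6645. The part of list length in these 2 calls was not tested.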

How the results depend on the processing

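No setting called any of the 10 genes at an adjusted p under 0.05 in either test, and the smallest adjusted p over all genes and settings was 0.0822. The number of genes with a peak in all 10 H3K4me3 libraries, 7, became 4 with equal list sizes, 4 with the wider peaks of each list and 2 when the peak had to cover a 5′ end. The mean number called, early minus later (1.83), became -1.0, 0.92 and 3.58 under these 3 settings, for which no share of all genes is given. The number with H3K9ac at all 5 stages, 0, became 2 with windows of 1000 bp, 1 with the 5′ ends of all transcripts, and lay between 0 and 4 when 1 library was left out. The shares of all genes for these altered H3K9ac counts are not given either. The Rnf8 difference of 119.7 bp turned to -1.58 bp with equal list sizes and with the wider peaks, to -27.7 bp for the bases downstream of the 5′ end and, without 1 library, lay between -24.8 bp (without leptonema experiment 2) and 302.8 bp (without zygonema experiment 2). The Hus1 difference of 102.1 bp turned to -116.8 bp with equal list sizes, where Hus1 was called in 0 early and 2 later libraries. Apart from the settings' own construction, the cause was not tested. With the replicate block by experiment, which leaves 100 splits and 120 pairings, 0 members and 0 genes were called in either test. At an unadjusted p under 0.05 there were 1706 genes early against later, among them 3 members. Among the stages there were 594 genes and 0 members. Whether libraries with the same experiment number share a preparation is not in the labels, and the study isolated all stages but leptonema in a common sort. The correlation of deviations between stages ranged from -0.233 to 0.365 and was over 0.1 in 2 of 10 pairs. These were late pachynema with diplonema (0.365) and zygonema with early pachynema (0.152). A shared preparation was not tested. The lists hold no depth, so a narrow peak or a lost call cannot be weighed by reads.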
